A study of Mus musculus with 38 samples.

Results

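The potassium channel genes described here are the protein-coding mouse genes whose symbol starts with Kcn. There were 94 such genes among the 22401 protein-coding genes that had a counted transcript, and they lay on 19 chromosomes. Membership was decided by symbol alone and used no measured value. The genes were sorted by symbol prefix into 17 voltage-gated Kv1 to Kv4 alpha subunits, 10 electrically silent modifier subunits, 5 Kcnq channels and 8 Kcnh channels. The rest included 8 genes grouped as calcium- and sodium-activated channels, with Kcnu1 placed among them by symbol and not by what activates it. They also included 15 inward rectifiers, 14 2-pore-domain leak channels, 16 auxiliary subunits and Kcnrg, a regulator that is not itself a channel.

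Ribosome footprints were sequenced from mouse primary cortical neurons, prepared from mid-gestation CD-1 embryos and grown for 12 days in vitro. All cultures carried a doxycycline-inducible lentiviral biotin ligase, which was either TurboID-PSD95, directed to dendrites by elements of the PSD95 transcript, or Pan-TurboID, without such elements. After 2 min of cycloheximide and 30 min of biotin, monosomes were collected, and ribosomes near the ligase were recovered on streptavidin (pulldown) beside an aliquot of the same monosomes (input). The 38 libraries formed 14 groups. Resting neurons and neurons given 55 mM KCl for 1 h after 2 h in tetrodotoxin and DL-AP5 gave 3 input and 3 pulldown libraries for each ligase. After KCl the medium was replaced, and biotin was given together with tetrodotoxin and DL-AP5. The labels give no such silencing for resting neurons. In every KCl comparison below, KCl, the silencing and the change of medium therefore cannot be told apart. Neurons with TurboID-PSD95 given 100 µM DHPG, which activates metabotropic glutamate receptors of group I, for 10 min, also after 2 h in tetrodotoxin and DL-AP5, gave 3 inputs and 3 pulldowns. For these the labels give the same time in biotin, while the methods give a shorter one. Neurons with TurboID-PSD95 and 20 nM eIF4G2 siRNA for 72 h gave 2 inputs and 2 pulldowns at rest and the same after KCl. Each library came from pooled culture dishes, and p-values measure the spread between these libraries. Non-targeting siRNA controls were not analysed here, so the knockdown and the experiment in which it was made cannot be told apart. The labels place the DHPG and knockdown libraries in the cytosol while giving their virus as PSD95-TurboID, and the virus was followed here.

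Potassium channels set the resting potential of a neuron and return it to rest after an action potential. Most are tetramers of pore-forming subunits, each contributing a re-entrant loop to the selectivity filter, and 2-pore-domain channels are dimers whose subunits each hold a pair of such loops. Kv channels open on depolarization, Kcnq channels carry the M-current that muscarinic receptors suppress, and inward rectifiers pass current best near rest, some of them under the control of G proteins. Silent modifier subunits form no channel alone and join Kv2 subunits. Auxiliary subunits such as the KChIP proteins (Kcnip genes) change the gating and trafficking of the channels that they bind.

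The reads that were counted lay in the coding sequence (CDS), so the part of it that makes these genes potassium channels is shown for 8 of the 11 members whose input counts differed between KCl and resting neurons, and for Kcnj9, which the study singled out. A search of the coding sequences for the selectivity filter signature, a codon for threonine or serine, any codon, a glycine codon, a codon for tyrosine, phenylalanine or leucine, and a glycine codon, found it in all 77 pore-forming and modifier genes. It was in 0 of the 15 auxiliary subunit genes that could be read. In all, 82.8% of 93 members held it, against 5.34% of 21456 genes with a coding sequence. The windows are 27 bases of the coding strand from the GENCODE M21 transcripts on mm10, 5′ to 3′, with the 15 bases of the signature in capitals.
Kcnj3, chr2:55437621-55437647, plus strand: gaggccACCATCGGCTATGGCtaccgc
Kcnj9, chr1:172326178-172326204, minus strand: gagaccACCATCGGCTATGGGcaccgg
Kcna4, chr2:107296489-107296515, plus strand: atgacaACTGTGGGCTATGGGgacatg
Kcna2, chr3:107105218-107105244, plus strand: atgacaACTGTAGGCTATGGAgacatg
Kcns2, chr15:34839606-34839632, plus strand: atgaccACAGTTGGGTACGGAgatgtg
Kcnv1, chr15:45109283-45109309, minus strand: atgactACAGTAGGATATGGGgacatt
Kcnh7, chr2:62777337-62777363, minus strand: ctaaccAGTGTAGGATTTGGAaatgtg
Kcnk10, chr12:98490052-98496205, minus strand: atcacaACCATAGGGTATGGGaatatt
Kcnk1, chr8:125995802-126025025, plus strand: ctctccACCACAGGCTATGGCcacacg
In Kcnk10 and Kcnk1 the window is split by an intron, so the coordinates span more than the printed bases. This held for 13 of the 14 2-pore-domain genes, and 13 of them had 2 signatures, the first of which is shown.

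CDS counts of the longest transcript of each gene summed to between 2048604 and 14646402 per library, and the 94 members together took 2924 to 39849 of them. In each KCl group without knockdown, the pairs with replicate 1 had the lower correlations of log2 values. Replicate 1 also had the fewest CDS counts there, and the part of depth was not tested. The lowest correlation, 0.8706, was between replicates 1 and 2 of the KCl TurboID-PSD95 pulldown. Eif4g2, the knockdown target, was at 211 to 319 CPM (counts per 1000000 of the normalized CDS library size) in the 8 knockdown libraries and at 334 to 769 CPM in the other 30. Fos, an immediate early gene, was 3.10 higher on the log2 scale after KCl in inputs (SE 0.29, edgeR adjusted p = 1.0e-07). The summed level of 6 neuronal markers was 4963 to 10326 CPM over the 38 libraries, that of 7 astrocyte markers 224 to 1344 CPM, and that of 6 microglial markers at most 18.9 CPM. All 6 neuronal markers were detected, as the label of cortical neurons implies, beside markers of astrocytes and of the oligodendrocyte lineage.

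Most of the family was measured, at levels below those of other genes. Of the 94 members, 70 passed the filter on low counts in some comparison and 24 in none. Counted over all 38 libraries, 24 members had fewer than 100 reads, and Kcne3, Kcnk16 and Kcnk18 had 0. The members that passed had a median level of 9.76 CPM per kb of CDS, against 18.4 for all genes that passed, and 18 of the 68 tested in the KCl experiment lay above that median. Summed per kb of CDS, 2-pore-domain channels made up 24.4% of the family's level, Kv1 to Kv4 subunits 24.3%, inward rectifiers 15.5% and auxiliary subunits 12.7%. Silent modifiers made up 7.8%, Kcnq channels 6.7%, calcium- and sodium-activated channels 5.2% and Kcnh channels 3.4%.

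Levels per length differed within and between subfamilies. Kcnk9, which encodes an acid-sensitive leak channel, had the highest mean over the 14 groups of all members, 141.6 CPM per kb, with group means from 65.3 to 244.8. Kcnk1, another leak channel, had a mean of 79.8 CPM per kb and group means from 49.8 to 134, and it was above Kcnk9 in the 3 groups of KCl inputs. Kcna6, a Kv1 subunit, had a mean of 66.5 CPM per kb, with group means from 35.0 to 121, and the Kv4 subunit gene Kcnd2 one of 61.1 CPM per kb. Kcnd2 was above Kcna6 in 3 of 7 input groups and 4 of 7 pulldown groups, so these levels have no fixed order. The highest members of other subfamilies included the inward rectifier gene Kcnj4 (53.9 CPM per kb), the auxiliary subunit gene Kcnmb4 (42.6), the silent modifier gene Kcnf1 (40.9), the large-conductance calcium-activated channel gene Kcnma1 (26.8) and the Erg-type channel gene Kcnh7 (11.5), the last below the median of all tested genes, 18.4 CPM per kb. Kcnj9 had 4.72 CPM per kb and Kcnrg 0.026.

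After KCl, inputs of both ligases together, that is footprints of the whole culture, held fewer reads of Kcnj4, Kcna4, Kcns2, Kcnk10, Kcnj3, Kcnh7, Kcnv1 and Kcna2, among others, and more of Kcnk1. In all 11 of 68 tested members passed an adjusted p of 0.05 in edgeR's quasi-likelihood test, which compared 6 KCl with 6 resting inputs, while 15.4% of the 13019 genes tested did. The 6 inputs of a state were 3 replicate numbers with each ligase. The fit took them as separate, although the study processed samples of a number together, so SE and p may be too small. With TurboID-PSD95 inputs alone 3 named values lost their call. The 10 that fell were 14.7% of the members, against 9.03% of all genes, and the 1 that rose was 1.47%, against 6.32%. The median log2 change was -0.23 over the members and -0.01 over all genes. Adjusted p-values are two-sided and adjusted over all genes tested, and log2 changes are KCl over resting.

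Among the inward rectifiers, Kcnj4 encodes a strongly rectifying channel and Kcnj3 a subunit of the channels that G protein βγ subunits open. In TurboID-PSD95 inputs Kcnj4 was at 59.0, 66.5 and 68.3 CPM at rest and at 21.8, 26.0 and 18.1 CPM after KCl. In Pan-TurboID inputs it was at 67.3, 83.0 and 84.1 CPM at rest and at 23.1, 33.2 and 18.6 CPM after KCl. The resting and KCl inputs did not overlap, and the log2 change was -1.63 (SE 0.17, adjusted p = 1.2e-07). Kcnj3 went from 58.6, 70.5 and 75.9 CPM to 39.4, 38.3 and 37.9 CPM in TurboID-PSD95 inputs and from 79.9, 86.6 and 97.1 CPM to 60.5, 40.1 and 29.5 CPM in Pan-TurboID inputs. Here 1 KCl library was above the lowest resting one, and the log2 change was -0.96 (SE 0.16, adjusted p = 0.00011). Of the 8 inward rectifiers tested, 7 had a negative change, but only these 2 passed the test, and the median of the 8 was -0.70.

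Among the Kv subunits, 3 of 16 passed, all lower. Kcna4 encodes the subunit of a fast-inactivating A-type current. It was at 31.3, 35.2 and 32.2 CPM in resting TurboID-PSD95 inputs and at 12.8, 10.8 and 9.20 CPM after KCl. In Pan-TurboID inputs it was at 33.9, 20.97 and 34.0 CPM at rest and at 8.86, 10.3 and 8.46 CPM after KCl. The groups did not overlap, with a log2 change of -1.67 (SE 0.19, adjusted p = 5.5e-07). Kcna2, a low-threshold channel of axons, changed by -0.93 (SE 0.27, adjusted p = 0.020). In Kcna2, 1 KCl library was far below the others, the Pan-TurboID input of replicate 1, with 1.48 CPM. Without replicate 1 its change was -0.72 (adjusted p = 0.063), and without replicate 3 it was -0.88 (adjusted p = 0.24).

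Both modifier subunits that passed fell. Kcns2, which joins Kv2 channels, was at 11.4, 13.4 and 7.61 CPM in resting TurboID-PSD95 inputs and at 1.29, 1.80 and 1.71 CPM after KCl. In Pan-TurboID inputs it was at 13.3, 11.7 and 11.8 CPM and, after KCl, at 5.91, 4.05 and 3.33 CPM. This was the largest log2 change of the tested members, -2.15 (SE 0.27, adjusted p = 2.7e-06), without overlap between resting and KCl inputs. Its size rests on few reads after KCl. They were 3, 9 and 16 in TurboID-PSD95 inputs and 12, 35 and 22 in Pan-TurboID inputs. Kcnv1 changed by -0.95 (SE 0.25, adjusted p = 0.0092) with 1 KCl library above the lowest resting one.

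Of the 8 leak channels tested, 1 fell and 1 rose, and the other 6 did not pass, with a median log2 change of -0.47 over the 8. Kcnk10 encodes a leak channel gated by stretch and warmth. Its resting inputs were at 61.3, 48.0 and 51.8 CPM with TurboID-PSD95 and at 63.1, 53.7 and 54.7 CPM with Pan-TurboID. After KCl they were at 30.0, 26.8 and 20.2 CPM and at 26.1, 36.2 and 18.1 CPM, all below the resting ones, and the log2 change was -1.12 (SE 0.17, adjusted p = 3.4e-05). Kcnk1, a weakly conducting leak channel, was the only member to rise in inputs. It was at 76.5, 76.7 and 38.8 CPM in resting TurboID-PSD95 inputs and at 146, 136 and 123 CPM after KCl. In Pan-TurboID inputs it was at 74.6, 63.5 and 35.2 CPM at rest and at 95.0, 122 and 119 CPM after KCl, so that every KCl input was above every resting one. The log2 change was 0.98 (SE 0.21, adjusted p = 0.0020), and resting replicate 3 was the low one of both ligases.

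Kcnh7, an Erg-type channel, changed by -0.95 (SE 0.21, adjusted p = 0.0028). Its resting inputs were between 26.0 and 37.6 CPM with a median of 31.8 CPM, and the highest KCl input was at 20.3 CPM, so the groups did not overlap. None of the 10 auxiliary subunits and none of the 7 calcium- and sodium-activated channels tested passed, with median log2 changes of 0.10 and 0.09. Kcnh7, Kcnv1 and Kcna2 each lost their call in at least 1 refit without a replicate number, whereas Kcnj4, Kcna4, Kcns2, Kcnk10, Kcnj3 and Kcnk1 kept theirs in all of them. The count of members called was 13, 7 and 8 without replicates 1, 2 and 3. The share of all genes called in these refits is not given here, so the counts describe the members alone. The summed level of 5 GABAergic neuron markers, all detected, was 1431 to 2596 CPM in resting inputs and 2056 to 3025 CPM in KCl inputs, and that of 9 oligodendrocyte lineage markers 231 to 578 CPM and 158 to 406 CPM, with Mog under 1 CPM in every input. Their part in the changes above was not tested.

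**Figure D1:**
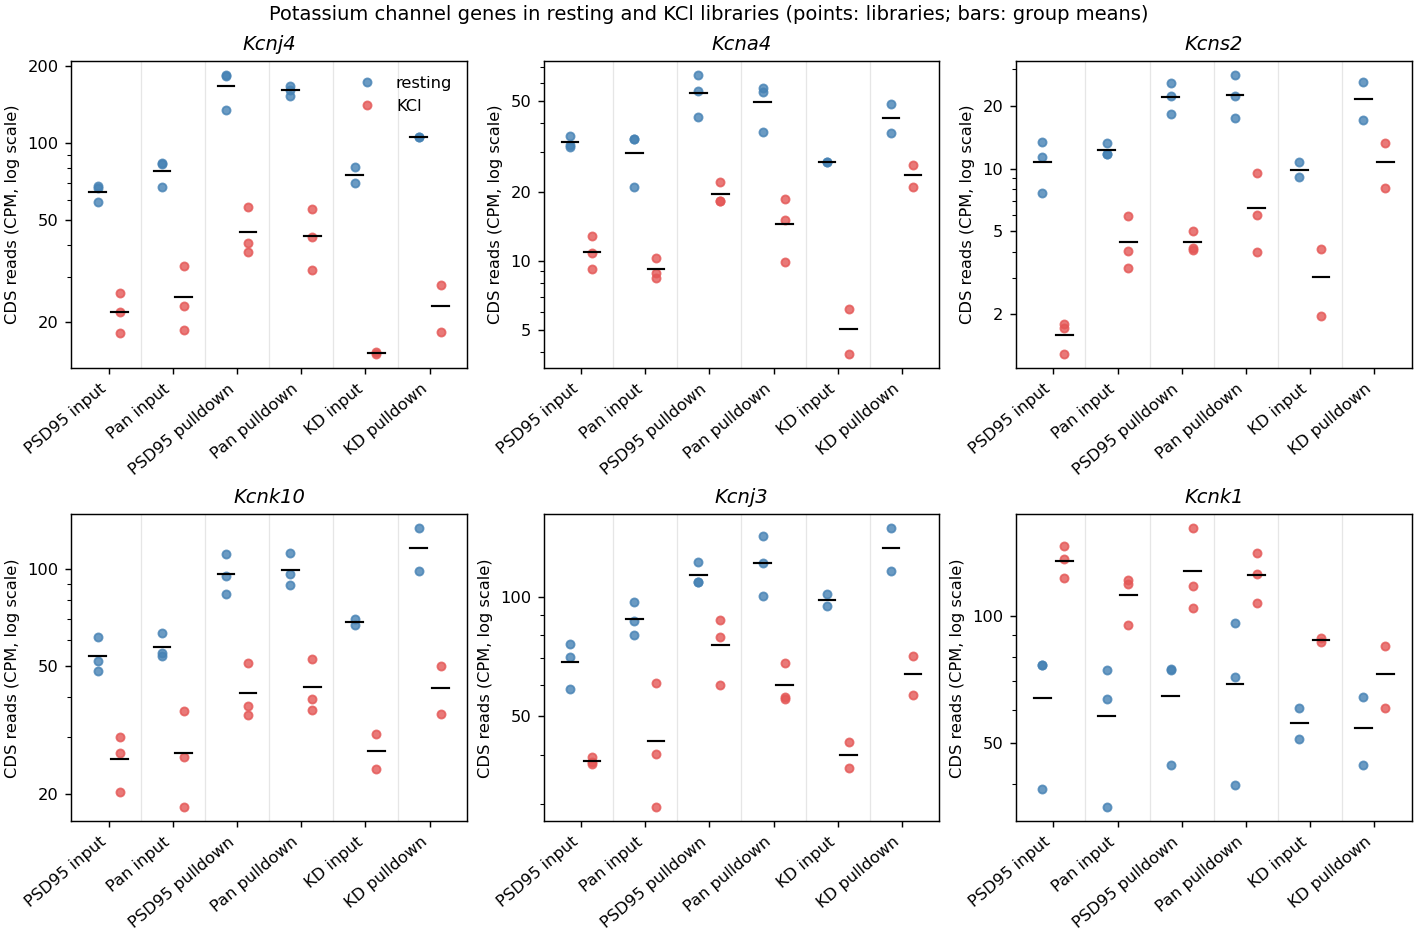
CDS reads of 6 potassium channel genes, in CPM on a log axis, by library (points) and group mean (bars), in resting (blue) and KCl (red) inputs and pulldowns of TurboID-PSD95 (PSD95), Pan-TurboID (Pan) and eIF4G2 knockdown (KD) neurons. Kcnj4 inputs lay between 59.0 and 84.1 CPM at rest and at 33.2 CPM or lower after KCl in the libraries without knockdown, while Kcnk1 inputs rose.

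In the TurboID-PSD95 pulldowns, ribosomes near the dendritic ligase, some of the genes named for inputs led. Kcnj4 fell from 135, 184 and 185 CPM at rest to 56.5, 37.7 and 40.8 CPM after KCl, a log2 change of -1.90 (SE 0.24, adjusted p = 8.7e-06 in edgeR). Kcns2 (-2.30, SE 0.37), Kcna4 (-1.43, SE 0.26) and Kcnk10 (-1.23, SE 0.24) fell and Kcnk1 rose (0.98, SE 0.30, adjusted p = 0.047). Kcnj3 (-0.58, SE 0.22), Kcnv1 (-1.03, SE 0.34), Kcnh7 (-0.35, SE 0.29) and Kcna2 (-0.49, SE 0.38) did not pass in these pulldowns. In all 6 of 68 members passed, 5 lower and 1 higher, which compare with 6.6% of all genes called, 3.28% lower and 3.32% higher. In Pan-TurboID pulldowns 8 of 68 members passed, 6 lower and 2 higher, against 5.03% of all genes, 3.16% lower and 1.87% higher, with Kcnj4 (-1.87, SE 0.24), Kcna4 (-1.76, SE 0.26), Kcns2 (-1.73, SE 0.35), Kcnk10 (-1.19, SE 0.23), Kcnj3 (-1.02, SE 0.22) and Kcnv1 (-1.24, SE 0.34) lower. Kcnip1, a Kv4 partner (1.54, SE 0.43), was among those higher there, and this call was lost whichever of the 3 replicates was left out. Pulldowns and inputs come from the same cultures, so these are not separate observations of the KCl response. Without replicate 3 only 2 members were called in the TurboID-PSD95 pulldowns and 1 in the Pan-TurboID pulldowns, and without replicate 2 they were 3 and 5. The all-gene shares above belong to the fits with all replicates, and those of the refits are not given here.

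Whether KCl changed the share of a gene's footprints found near the dendritic ligase was tested as a difference of pulldown over input between KCl and rest. No member passed, and 0 of 68 had an unadjusted p under 0.05, against 1.81% of all genes. DESeq2 also called 0, and edgeR called 0% of all genes. The smallest p was that of Kcnh5, an EAG channel, with a log2 difference of 1.43 (SE 0.75, adjusted p = 1.00). The median difference was 0.06 over the members and 0.08 over all genes.

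The second KCl experiment, on eIF4G2 knockdown neurons, shares no library with the first. In its inputs 17 of 64 tested members passed, 3 higher and 14 lower, while 19.3% of all genes passed, 8.98% higher and 10.3% lower. Kcnj4 fell from 80.6 and 69.6 CPM to 14.9 and 15.2 CPM, a log2 change of -2.30 (SE 0.22, adjusted p = 1.8e-08 in edgeR). Kcna4 fell from 27.1 CPM in both resting inputs to 3.92 and 6.17 CPM (-2.46, SE 0.33), Kcnj3 by 1.26 (SE 0.17), Kcnk10 by 1.29 (SE 0.21) and Kcnd2, the main dendritic A-type subunit, by 0.60 (SE 0.14) on the log2 scale. The 3 that rose were Kcnk1, from 51.0 and 60.4 CPM to 88.8 and 86.8 CPM (0.67, SE 0.19, adjusted p = 0.012), the Kv4 gene Kcnd3 (0.63, SE 0.21) and Kcnk9 (0.39, SE 0.13).

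In the knockdown pulldowns 16 of 64 members passed, 5 higher and 11 lower, against 22.2% of all genes, 10.2% higher and 12% lower. Among those that fell were Kcnj4 (-2.19, SE 0.22), Kcnk10 (-1.47, SE 0.21), Kcnj3 (-1.08, SE 0.17), Kcnq5, an M-current gene (-0.76, SE 0.14), and Kcnv1 (-0.81, SE 0.20). Those that rose were Kcnj10 (0.64, SE 0.16), Kcnk9 (0.44, SE 0.13), Kcna6 (0.55, SE 0.16), the silent modifier gene Kcng3 (1.54, SE 0.48) and Kcnmb4, a subunit of large-conductance channels (0.93, SE 0.30). Kcnj10 is the inward rectifier of astrocytes, and it went from 83.4 and 111 CPM to 162 and 141 CPM, while the summed level of the 7 astrocyte markers went from 671 and 518 CPM to 959 and 703 CPM in the same libraries. The part of astrocyte RNA in its change was not tested. These knockdown groups hold 2 libraries each. With the spread pooled over both experiments, an alternative chosen after seeing the data, 5 members were called in the inputs and 5 in the pulldowns, none of them higher. Shares of all genes called with the pooled spread are not given here, so these counts describe the members alone. Leaving out 1 replicate number leaves 1 library per group and also needs a pooled spread. Fewer members were then called, which does not separate the lost replicate from the changed spread.

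Of the 63 members tested in both input comparisons, 9 passed in both, all in the same direction. They were 81.8% of the 11 called without knockdown and 52.9% of the 17 called with it, and the other 2 of the 11 had the same sign. These shares rest on the calls with knockdown, so with the pooled spread at most 5 members could pass in both. Of all 1963 genes called without knockdown and tested in both, 51.9% passed in the same direction with knockdown. The log2 changes of the 63 members correlated with a Pearson coefficient of 0.67 and a Spearman coefficient of 0.62, and those of all 12143 genes with a Pearson coefficient of 0.59. These are correlations across genes, which share libraries and depth and are not independent replicates.

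**Figure D2:**
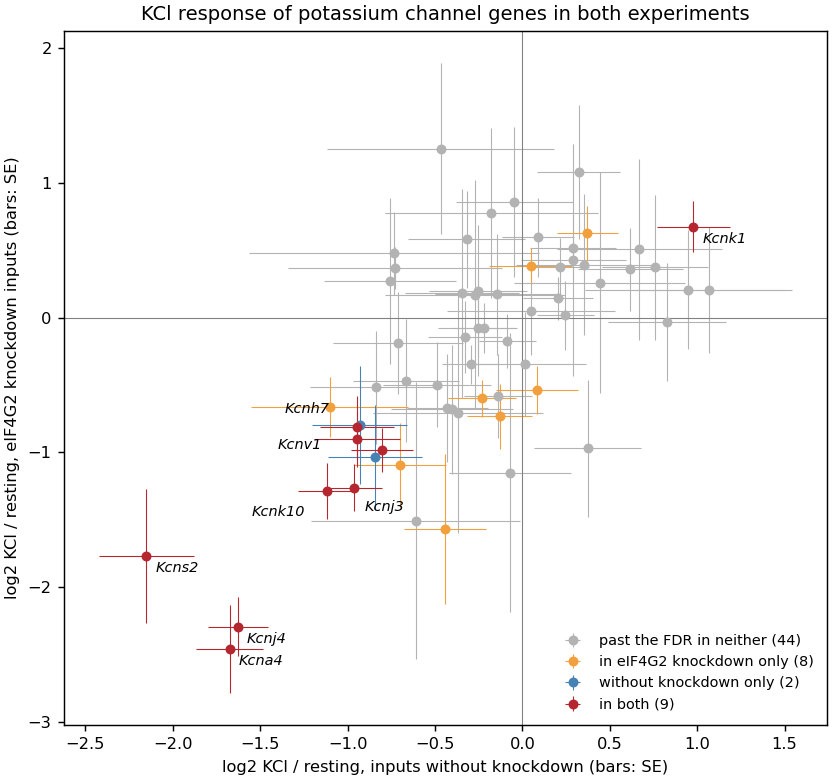
Log2 change of KCl over resting of 63 potassium channel genes in inputs without knockdown (x axis) and in eIF4G2 knockdown inputs (y axis), with SE bars, coloured by where the gene passed an adjusted p of 0.05. The 9 genes called in both lie in 2 opposite quadrants, Kcnk1 in the upper right and the other 8, of which 7 are labelled, in the lower left.

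The difference between the KCl responses with and without knockdown was tested in a fit of 20 TurboID-PSD95 libraries. In inputs 0 of 70 members passed, with 0.00758% of all genes called. None had an unadjusted p under 0.05, against 2.8% of all genes, and DESeq2 called 0 as well. The smallest p was that of Kcnj4, whose log2 response with knockdown minus that without was -0.70 (SE 0.35, adjusted p = 1.0). In pulldowns 0 of 70 passed, with 0.447% of all genes called (0.0152% higher and 0.432% lower), 4 had an unadjusted p under 0.05, against 9.42% of all genes, and DESeq2 called 0, against 1.05%. The smallest p there was that of Kcnj2, an inward rectifier related to Kcnj4, with a difference of 1.56 in the same direction of subtraction (SE 0.51, adjusted p = 0.27). A p above the threshold does not show that the responses were alike.

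Over all 5 KCl comparisons, Kcna4, Kcnj4 and Kcnk10 were called lower in each, which makes 3 of the 63 members tested in all 5, or 4.76%, against 1.58% of all genes. Inputs and pulldowns within an experiment share cultures, so the 5 are not separate tests. Kcnj3, Kcns2 and Kcnv1 were among those called lower in 4. Kcnk1 was called higher in 3 and Kcnk9, with knockdown alone, in 2. With the spread pooled with the libraries without knockdown no member was called higher in the knockdown comparisons. Kcnk1 then had an adjusted p of 0.34 in inputs, and Kcnk9 0.73 in inputs and 0.54 in pulldowns. The share of all genes called higher with this spread is not given here.

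Genes outside the Kcn symbols that assemble with or anchor potassium channels, and the related HCN channels, were read from a list of 21, of which 17 could be tested. In KCl inputs, where 6.32% of all genes rose and 9.03% fell, 0 rose and 3 fell, namely Lrrc55, an auxiliary subunit of large-conductance channels (-1.57, SE 0.26), Adam22, a partner of Kv1 complexes (-0.71, SE 0.13), and the HCN channel gene Hcn2 (-0.68, SE 0.20). In knockdown inputs, where 8.98% of all genes rose and 10.3% fell, 3 rose and 5 fell, with Lrrc55 (-1.63, SE 0.56) and Adam22 (-1.09, SE 0.15) again among those that fell.

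The promoters of the members were searched for motifs of activity-dependent factors, on both strands of RefSeq windows (GRCm38.p6) from 250 bases before to 50 after a start site. There were 94 windows, of 69 members. The cAMP response element TGACGTCA was in 0 of them, against 1.79% of all 32851 windows, and its core TGACG, which is also part of the longer motif, in 19.1% against 20.8%. The AP-1 motif TGANTCA was in 4.26% against 7.81%, and the EGR motif GCGTGGGCG in 0 against 0.612%. Counted by gene, the core motif was in 26.1% of the 69 members, against 23.0% of 27025 genes, while the other motifs stayed rarer in members. Of the 7 members with a window among the 11 that changed in inputs, Kcnj4 held the core motif, at position -167 from its start site, shown here in capitals with its surroundings on the minus strand.
Kcnj4, chr15:79505395-79505417: cccagctctTGACGcggggcaac
A match of letters is a description and no evidence that a factor binds.

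In pulldown over input, more pore-forming and modifier genes were higher in the pulldown than lower in all 4 comparisons, and, before CDS length was taken into account, most of the members that were lower were auxiliary subunits. In TurboID-PSD95 cultures, averaging rest and KCl, 35 of 68 tested members were higher in the pulldown and 1 was lower, while 20% of all genes were higher and 21% lower, 41% in all. In Pan-TurboID cultures 23 were higher and 1 lower, against 16.8% and 17.4% of all genes. In DHPG cultures 51 of 68 were higher and 6 lower, against 40.5% and 39.3%, and in knockdown cultures 33 of 64 were higher and 5 lower, against 29.1% and 30.6%, which make 59.7% in all. The median log2 ratio of the members was 0.76, 0.52, 0.89 and 0.67 in this order, and that of all genes -0.03, -0.02, 0.05 and -0.01. Without replicate 3 the calls fell to 14 with TurboID-PSD95 and 8 with Pan-TurboID, and without replicate 2 to 15 with Pan-TurboID. In DHPG cultures the calls stayed between 54 and 59. Shares of all genes in these refits are not given here. In knockdown cultures such a refit leaves 1 library per group and a pooled spread, and fewer members were then called.

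The members that were higher were mostly pore-forming and modifier genes. With TurboID-PSD95, 34 of 58 were higher and 0 lower. They were joined by Kcnab2 among the 10 auxiliary genes, of which 1, Kcnip3, was lower. With Pan-TurboID 22 of 58 pore-forming and modifier genes were higher and 0 lower, and Kcnab2 was again the 1 auxiliary gene that was higher. After DHPG 48 of 59 pore-forming and modifier genes were higher and 1, Kcns1, lower, while 3 of 9 auxiliary genes were higher and 5 lower. With knockdown the numbers were 32 higher and 1 lower of 55, and 1 higher and 4 lower of 9. The median log2 ratios of pore-forming and modifier genes were 0.83, 0.62, 0.90 and 0.68 with TurboID-PSD95, Pan-TurboID, DHPG and knockdown. Those of auxiliary genes were -0.10, -0.34, -0.76 and -0.88.

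Of the 62 members tested in all 4 comparisons 18 were higher in each, or 29%, against 13.9% of all genes, and they came from most subfamilies. This count rests in part on the knockdown groups, which hold 2 libraries each. With the pooled spread fewer members were called in the knockdown comparison, and the share of all genes called with it is not given here. The 18 included Kcna4, Kcna5, Kcna6, Kcnd2 and Kcnd3 among Kv subunits, Kcns2 among modifiers, Kcnq5, Kcnh1 and Kcnh7, and Kcnma1, Kcnt1 and Kcnt2 among calcium- and sodium-activated channels. Kcnj3, Kcnj4, Kcnk9, Kcnk10 and the auxiliary Kcnab2, a beta subunit of Kv1 channels, were also among them. After DHPG, Kcnk9 was at 100.4, 103 and 95.5 CPM in inputs and at 293, 267 and 317 CPM in pulldowns (log2 ratio 1.52, SE 0.07), and Kcnma1 went from 70.9, 81.0 and 73.5 CPM to 222, 231 and 204 CPM (1.51, SE 0.08). In both genes the DHPG pulldowns were above every DHPG input. With TurboID-PSD95 without DHPG their log2 ratios were 1.29 (SE 0.24) and 1.28 (SE 0.23), and pulldowns and inputs overlapped. The lowest Kcnk9 pulldown there was at 142 CPM and the highest input at 155 CPM. For Kcnma1 these were 65.8 and 84.4 CPM. Kcnt1, a sodium-activated channel, had 1.36 (SE 0.22) with TurboID-PSD95 and 1.19 (SE 0.22) with Pan-TurboID. Kcnt2, its closest relative, had 1.83 (SE 0.26) with knockdown.

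The members lower in the pulldown were mostly KChIP genes and Kcnmb4. Kcnip4 went from 13.6, 12.7 and 11.2 CPM in DHPG inputs to 4.45, 4.97 and 4.32 CPM in the pulldowns, a log2 ratio of -1.48 (SE 0.18, adjusted p = 5.1e-07 in edgeR), and it had -1.56 (SE 0.31) with knockdown. Kcnmb4 went from 39.7, 38.2 and 38.7 CPM to 24.1, 19.5 and 22.6 CPM after DHPG (-0.85, SE 0.11) and had -0.99 (SE 0.19) with knockdown. After DHPG all pulldowns of both genes were below all inputs, whereas with knockdown those of Kcnmb4, at 12.4 to 27.6 CPM, overlapped its inputs, at 24.0 to 43.6 CPM. Kcnip3, a calcium sensor that also binds DNA, was lower with TurboID-PSD95 (-1.21, SE 0.35), Pan-TurboID (-1.35, SE 0.35) and DHPG (-0.76, SE 0.27). Kcnip2 and Kcnip1 were lower after DHPG (-0.87, SE 0.18 and -1.31, SE 0.33), and Kcne1l with knockdown (-1.67, SE 0.26). The modifier gene Kcns1 was the sole pore-like member on this side, with -0.62 (SE 0.17) after DHPG and -0.93 (SE 0.35) with knockdown.

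**Figure D3:**
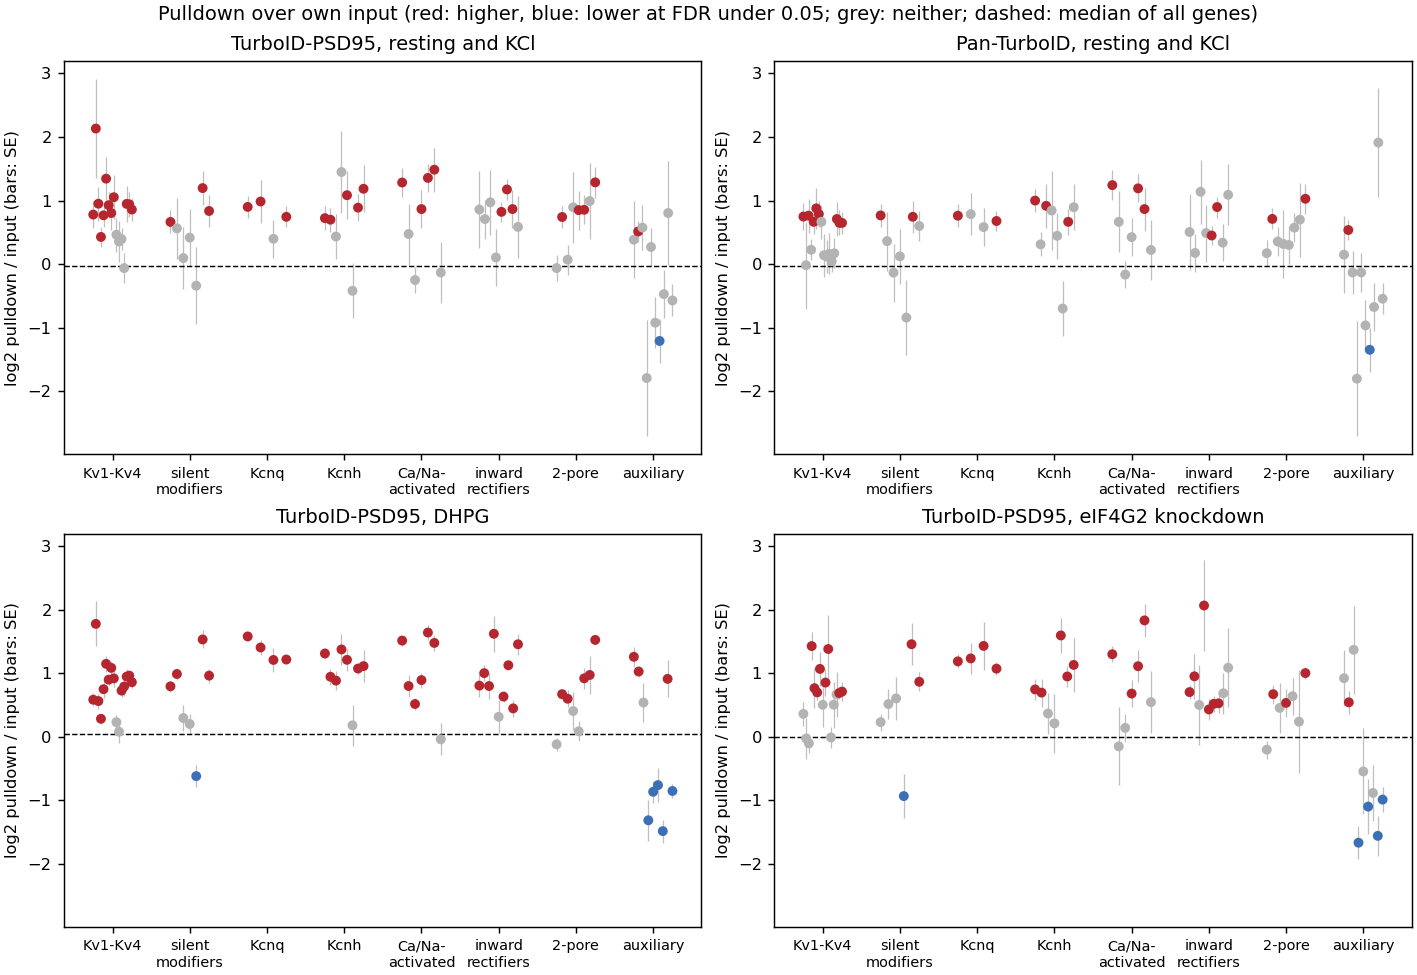
Log2 ratio of pulldown over input of each tested potassium channel gene (points, SE bars) by subfamily in 4 kinds of cultures, with the median of all genes dashed. In each panel most pore-forming and modifier genes lie above the dashed line, and the blue genes, lower at an adjusted p of 0.05, are auxiliary subunits apart from Kcns1.

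Auxiliary subunits have short coding sequences, and longer genes were higher in the pulldowns across all genes. The Spearman coefficient between CDS length and log2 pulldown over input was 0.56, 0.55, 0.62 and 0.58 over all genes in the TurboID-PSD95, Pan-TurboID, DHPG and knockdown comparisons, and 0.35, 0.35, 0.40 and 0.42 over the members. The tested members had a median CDS of 1536 nucleotides and all tested genes 1389. With each library's trend of counts on CDS length removed, the members' medians were 0.54, 0.36, 0.53 and 0.41, against -0.06, -0.06, -0.02 and -0.05 for all genes. The members called went from 36 to 23 with TurboID-PSD95, from 24 to 12 with Pan-TurboID, from 57 to 50 after DHPG and from 38 to 28 with knockdown. Of the pore-forming and modifier genes 20 of 58 were then higher and 1 lower with TurboID-PSD95, against 11.8% and 15.4% of all genes. With Pan-TurboID 10 of 58 were higher and 0 lower, against 9.3% and 12.1%. After DHPG 43 of 59 were higher and 2 lower, against 32.3% and 35.1%, and with knockdown 23 of 55 were higher and 2 lower, against 20.4% and 25.8%. So fewer than before were higher in each comparison. Of the auxiliary genes 1 was higher and 1 lower with TurboID-PSD95 (median 0.15), 1 and 1 with Pan-TurboID (-0.15), 3 and 2 after DHPG (-0.11) and 1 and 2 with knockdown (-0.36). With TurboID-PSD95 1 of 58 pore-forming and modifier genes was then lower, against 1 of 10 auxiliary genes, and with Pan-TurboID 0 of 58 against 1 of 10. After DHPG these were 2 of 59 against 2 of 9, and with knockdown 2 of 55 against 2 of 9. The median log2 ratios of pore-forming and modifier genes were then 0.56, 0.41, 0.56 and 0.45 with TurboID-PSD95, Pan-TurboID, DHPG and knockdown. Kcnmb4, Kcnip1 and Kcnip3 were no longer called after DHPG.

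**Figure D4:**
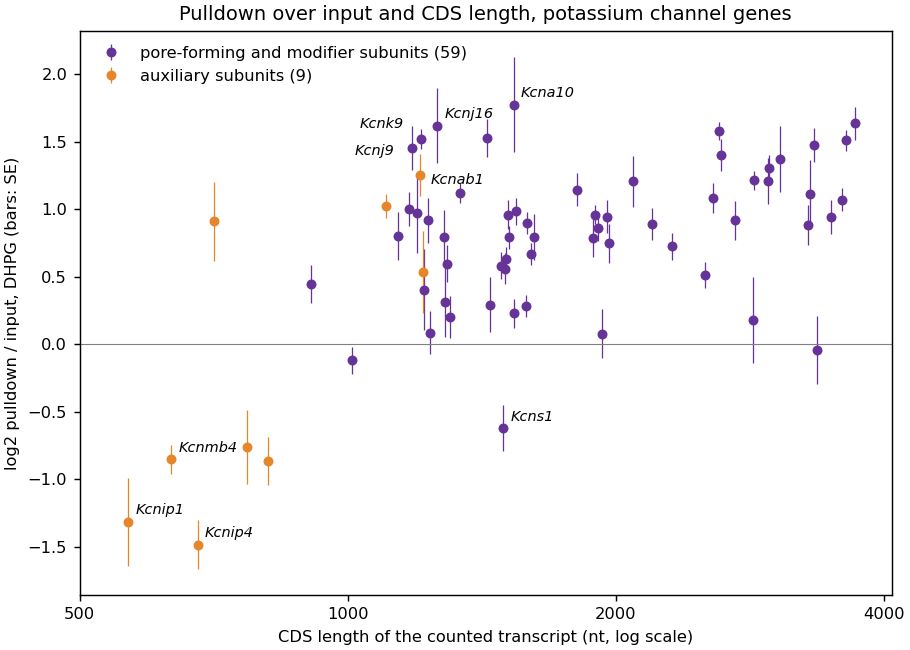
Log2 ratio of pulldown over input after DHPG of each tested potassium channel gene (points, SE bars) against the CDS length of its counted transcript on a log axis, with pore-forming and modifier genes in purple and auxiliary genes in orange. The 5 auxiliary genes that were lower have short coding sequences, and Kcns1 is the lowest of the other genes.

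No member passed the test of the difference between the 2 ligases. The difference of TurboID-PSD95 and Pan-TurboID pulldown over input passed for 0 of 68 members, against 0.00768% of all genes, and 0 had an unadjusted p under 0.05, against 1.3%. DESeq2 called 0 as well. With the replicate number as a block 0 passed, 3 had an unadjusted p under 0.05 and the smallest adjusted p was 0.93. The shares of all genes above belong to the fit without the block, and those with the block are not given here. The smallest p without the block was that of the Kv1 gene Kcna10, with a log2 difference of 2.15 (SE 1.07, adjusted p = 1.0). The median difference was 0.21 over the members and 0.01 over all genes, and 52 members had a positive difference and 16 a negative one. A p above the threshold does not show that the ligases recovered these genes alike.

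Of the 17 partner genes tested, 8 were higher and 3 lower in TurboID-PSD95 pulldowns, where 20% of all genes were higher and 21% lower. After DHPG 12 were higher and 3 lower, against 40.5% and 39.3% of all genes. Dpp6, a transmembrane partner of Kv4 channels (1.30, SE 0.20), and Abcc8, the sulfonylurea receptor of ATP-sensitive channels (1.21, SE 0.22), were the highest with TurboID-PSD95. The lower ones were Vapa (-0.90, SE 0.21) and Vapb (-1.05, SE 0.18), membrane proteins of the endoplasmic reticulum that anchor Kv2 clusters, and Akap5 (-0.43, SE 0.15), a scaffold that holds kinases at postsynaptic membranes.

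Kcnj9, a subunit of G protein-gated inward rectifiers, was measured at few reads. Its CDS reads in TurboID-PSD95 libraries were at 3.37, 4.89 and 1.47 CPM in resting inputs and at 5.14, 4.19 and 2.89 CPM in KCl inputs. The resting pulldowns were at 8.78, 0.633 and 8.27 CPM and the KCl pulldowns at 6.62, 6.38 and 2.96 CPM, so that the groups overlap. After DHPG the inputs were at 5.73, 6.02 and 5.77 CPM and the pulldowns at 18.2, 14.9 and 16.2 CPM. Its CDS passed in 1 comparison only, pulldown over input in DHPG cultures, with a log2 ratio of 1.45 (SE 0.16, adjusted p = 1.9e-07 in edgeR). The ratio with TurboID-PSD95 without DHPG was 0.59 (SE 0.48) and with Pan-TurboID 1.09 (SE 0.48, adjusted p = 0.078). With knockdown it was 1.08 (SE 0.62). These are ratios within a condition, and a change with DHPG was not tested.

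Reads in the 5′ UTR, upstream of the start codon, were tested with the library sizes of the CDS. In inputs 0 of 50 tested members passed for a change with KCl, against 0.443% of all genes. There, 5 members had an unadjusted p under 0.05, against 4.86% of all genes, and DESeq2 called 1, against 0.876%. In TurboID-PSD95 pulldowns 0 of 50 passed, against 0.285% of all genes. Of these 50, 10 had an unadjusted p under 0.05, against 13.6%, and DESeq2 called 4, against 1.87%. The median log2 change was 0.15 and 0.66 over the members and 0.17 and 0.65 over all genes. KCl TurboID-PSD95 pulldowns held 115387, 1689198 and 374501 reads in 5′ UTRs beside 2057107, 7330161 and 3298103 in CDS. At rest they held 433118, 549904 and 143378 beside 7153808, 4789917 and 2048604. Among KCl libraries, replicate 2 alone had a larger 5′ UTR share than every resting one.

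The smallest p in the pulldowns was that of Kcnj9. Its 5′ UTR had 2, 0 and 2 reads in the resting pulldowns and 7, 54 and 10 reads in the KCl pulldowns, which are 0.266, 0 and 0.972 CPM against 3.56, 7.04 and 2.96 CPM. The groups did not overlap, and the log2 change was 3.87 (SE 1.07, adjusted p = 0.10 in edgeR), a size that rests on the few resting reads. With the replicate number as a block the adjusted p was 0.033. In Pan-TurboID pulldowns the 5′ UTR was at 0.807, 4.17 and 2.25 CPM at rest and at 0.353, 4.57 and 2.73 CPM after KCl. In knockdown pulldowns it was at 2.98 and 0.441 CPM at rest and at 1.22 and 0.985 CPM after KCl. Resting and KCl libraries overlapped in both. In TurboID-PSD95 inputs the 5′ UTR was at 4.60, 3.99 and 3.93 CPM at rest and at 9.85, 8.59 and 7.06 CPM after KCl, without overlap. In Pan-TurboID inputs it was at 9.28, 6.08 and 2.41 CPM and, after KCl, at 0, 4.97 and 6.95 CPM, and over the inputs of both ligases the log2 change was 0.22 (SE 0.55). The CDS of Kcnj9 changed by -0.11 in the TurboID-PSD95 pulldowns without knockdown.

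**Figure D5:**
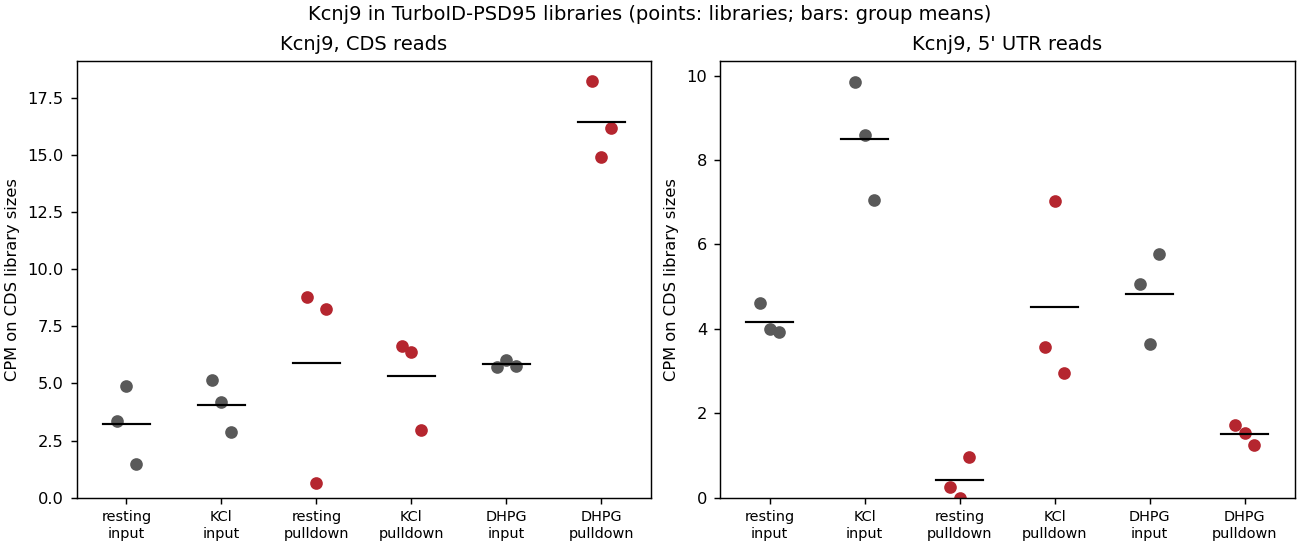
Reads of Kcnj9 in its CDS (left) and its 5′ UTR (right), in CPM on CDS library sizes, by TurboID-PSD95 library (points) and group mean (bars). In the 5′ UTR the resting pulldowns without knockdown lie below 1 CPM and the KCl pulldowns without knockdown between 2.96 and 7.04 CPM, while in the CDS these groups overlap and the DHPG pulldowns are the highest.

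In inputs the smallest p of a 5′ UTR was that of Kcna4, whose CDS also fell. Its 5′ UTR was at 26.6, 44.6 and 38.3 CPM in resting TurboID-PSD95 inputs and at 12.8, 26.4 and 26.5 CPM after KCl. The log2 change over both ligases was -1.02 (SE 0.35, adjusted p = 0.39 in edgeR). With the replicate number as a block it was -1.05 (adjusted p = 0.022), and with library sizes taken from 5′ UTR reads -1.22 (adjusted p = 0.00019). DESeq2 gave -1.01 (adjusted p = 0.039). The change was not called with the likelihood ratio test (adjusted p = 0.19), RLE size factors (0.33) or no filter (0.55). Nor was it called when any replicate number was left out.

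Some members share exonic sequence with a gene on the opposite strand. The coding sequence of Kcna6 overlaps Gm26673 over 1590 nucleotides, that of Kcnj3 overlaps Gm26794 over 660, that of Kcnk1 overlaps Gm45875 over 179 and that of Kcnj9 overlaps Gm36937 over 172. Of these 94 genes 16 had such an overlap and none overlapped another gene on its own strand. Whether the counting used strand is not given in the sources used here, so reads of these genes and of their antisense partners cannot be told apart.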

How the data were processed

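The authors cut a 6-nucleotide molecular identifier and adapters from the reads, aligned those longer than 20 nucleotides to mm10 with Rsubread, removed rRNA reads and duplicates, and counted 5′ ends of fragments of 25 to 100 nucleotides over UCSC knownGene regions with plastid. The deposited counts are whole reads per transcript region, per the file headers. Transcripts were named through GENCODE M21, where 66664 of 67238 coding transcripts matched, and the longest CDS transcript of each gene was used.

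For all tests of counts, edgeR 4.0.16 (R 4.3.3) was run on the whole table (TMM, filterByExpr, robust quasi-likelihood F test, Benjamini-Hochberg adjustment, threshold 0.05), as group means without a block. 5′ UTR counts used the library sizes of the CDS. Alternatives were the likelihood ratio test, DESeq2 1.42.0, RLE size factors, no filter, the transcript with the highest count, fewer libraries in the fit, the replicate block, removal of the CDS length trend and leaving out each replicate number. The tests were checked on simulated data. The range of depths over the libraries is given in the report, and lower depth widens the SE of a member.

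The members and lists were chosen with earlier results of these data known. Named with values were, for each comparison, the members past the threshold whose same-numbered replicates all moved one way (the 12 with the smallest p in each direction for the KCl response in inputs, 6 elsewhere, or the member with the smallest p where none passed), the highest member of each subfamily, and Kcnj9. Kcna5, Kcnd3, Kcnab2 and others listed in the counts over comparisons were named after their values were seen.

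Replicate numbers pair the samples by the study's methods, which processed resting and activated samples of a number together and took input and pulldown from one lysate. The correlation of deviations from group means between a pulldown and its own input was -0.08 to 0.52 (median 0.27), over 0.1 in 12 of 15 pairs, and between resting and KCl libraries of a number -0.18 to 0.19, over 0.1 in 1 of 12. These pairs were without knockdown. With knockdown the 2 kinds of pairs gave -0.0006 to 0.0147 and -0.0198 to 0.0046, over 0.1 in 0 of 4 each. Pan-TurboID and TurboID-PSD95 libraries of a number were not compared in this way. No 2 replicates agreed within sampling noise. Some members are not reported here by name.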

Additional observations from a re-analysis of the deposited data

How the results depend on the processing

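With the likelihood ratio test the members called for KCl in TurboID-PSD95 pulldowns went from 6 to 10, and with DESeq2 also to 10. Shares of all genes called are not given for the alternatives in this section, so their counts describe the members alone. Leaving out a replicate number gave 7 to 13 members for KCl in inputs (11 with all), 2 to 8 in TurboID-PSD95 pulldowns, 1 to 8 in Pan-TurboID pulldowns (8 with all), 0 to 2 in knockdown inputs (17 with all) and 0 to 1 in knockdown pulldowns (16 with all). It gave 14 to 30 for TurboID-PSD95 pulldown over input, 8 to 21 for Pan-TurboID and 3 to 5 for knockdown, and 0 to 2 for 5′ UTR reads in TurboID-PSD95 pulldowns. In the knockdown comparisons a lone library was assumed to vary like the other groups, and the spread was then pooled over 20 libraries. These knockdown counts thus do not separate a lost replicate from the changed spread. The alternative with pooled spread, chosen after seeing the data, gave 5 members in inputs, 5 in pulldowns and 27 for pulldown over input. Removing the CDS length trend gave 23 members for TurboID-PSD95 and 12 for Pan-TurboID pulldown over input.

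For 5′ UTR reads after KCl in inputs, DESeq2 called 1 member and 5′ UTR library sizes 3, against 0. In TurboID-PSD95 pulldowns the likelihood ratio test called 3 and DESeq2 4, against 0. With the replicate block 1 member (Kcna4) was called in inputs and 2 in these pulldowns, Kcnj9 among them. Among the named values, the block moved no other call, and its counts elsewhere were 14 for KCl in inputs, 43 for TurboID-PSD95 and 34 for Pan-TurboID pulldown over input.

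Of 1019 recomputed values of named members, 880 kept direction and side of the threshold, 119 lost their call, 10 gained one and 10 changed sign. All that changed sign were Kcnj9, which no fit called there. For KCl, its log2 change was 0.23 in TurboID-PSD95 inputs alone. Leaving out a replicate number gave -0.87 to 0.44 in TurboID-PSD95 pulldowns (0.31 without replicate 1, 0.44 without replicate 3), -8.81 to 0.64 in knockdown pulldowns, where 1 library held 0 reads, -8.97 to 1.55 for the difference of these from the pulldowns without knockdown, and -1.49 to 0.31 for the KCl change of its pulldown over input (0.24 without replicate 1). It gave -1.71 to 0.89 for knockdown pulldown over input and -0.22 to 0.69 for its 5′ UTR in inputs, which was -0.077 with 5′ UTR library sizes. The causes were not tested. Kcnj9 had from 0 to 180 CDS reads per library, and the size of change that could be detected at this depth was not tested.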

Other observations

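Kcnj10, the inward rectifier known from astrocytes, varied between replicates of one group. In resting TurboID-PSD95 inputs it was at 56.1, 17.8 and 7.86 CPM, while the summed level of the 7 astrocyte markers was 945, 670 and 503 CPM. In resting Pan-TurboID inputs it was at 44.1, 18.0 and 7.95 CPM, with astrocyte sums of 919, 729 and 533 CPM. After KCl the TurboID-PSD95 inputs were at 9.85, 11.0 and 20.2 CPM, with sums of 627, 569 and 551 CPM. In DHPG inputs it was at 6.34 to 7.25 CPM, with sums of 224 to 233 CPM, and in knockdown inputs at 63.3 to 83.9 CPM, with sums of 563 to 715 CPM. The part of astrocyte content in these levels was not tested.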
